A study of Homo sapiens with 8 samples.

Results

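The small proline-rich proteins (SPRR) are 9 genes of 63241 in the deposited count table: SPRR1A, SPRR1B, the 6 SPRR2 genes SPRR2A, SPRR2B, SPRR2D, SPRR2E, SPRR2F and SPRR2G, and SPRR3. They were taken by name, and all 9 were matched to 1 row each by Ensembl identifier. They were singled out from CPM (a gene's counts scaled to the library total) of these same libraries, so their difference between labels is described here and not tested. Each of the 8 libraries is labelled as HSC3, an established line from a human oral squamous cell carcinoma. The sample labels give 4 libraries as knockdown and 4 as control, and their protocol names an siRNA against COL1A1 and a negative-control siRNA. The column headers of the count table instead mark the first 4 as COL1A1-KO, usually read as knockout, and which of these describes the cells cannot be told from the labels. By that protocol both groups share the dose of 100 pmol siRNA with the lipid reagent Lipofectamine and the 48 hours after transfection, and nothing says that libraries of a label came from separate cultures. "Knockdown 1" to "control 4" below name libraries by label and replicate number.

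COL1A1, the gene targeted and a chain of type I collagen, stood at 368, 123, 301 and 155 CPM in knockdown 1 to 4, against 88.9, 8183, 476 and 689 CPM in control 1 to 4. The labels overlapped in their target, with control 1 below every library labelled knockdown. Total counts ran from 30684584 to 61795990 per library. Markers of squamous keratinocytes (6 of 6 detected in every library) took 0.0967% to 10.4% of counts in the libraries labelled knockdown and 0.0439% to 5.12% in those labelled control. Skeletal muscle markers (12 of 12 detected in every library), which a carcinoma line is not known to express, took 0.00435% to 4.64% in knockdown and 0.00328% to 14.6% in control. Salivary gland markers (12 measured) took 10.8% of counts in knockdown 2 and 8.79% in control 1, and at most 9.30 CPM in the other 6 libraries, with up to 5 of the 12 at 0. Summed fibroblast markers ran from 328 to 879 CPM in knockdown and from 738 to 10713 CPM in control, and endothelial markers from 127 to 470 CPM and from 118 to 461 CPM. Leukocyte markers ran from 53.6 to 14202 CPM in knockdown and from 103 to 9107 CPM in control. Their highest sums were in knockdown 2 and control 1, the libraries high in salivary gland markers, with at most 378 CPM elsewhere. The 5 leukocyte markers include LYZ, and whether these counts came from leukocytes was not tested. Knockdown 2, knockdown 4, control 1 and control 3 each held over 1% of counts in the muscle or salivary list. In such bulk RNA, fewer cells of a type and less RNA per cell cannot be told apart.

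SPRR proteins are short, rich in proline and built of repeats, and transglutaminases cross-link them into the cornified envelope, the insoluble shell that replaces the plasma membrane of a keratinocyte at the end of its differentiation. Their genes form a cluster within the epidermal differentiation complex, beside those of loricrin, involucrin, filaggrin and many S100 proteins. SPRR3 is known as an abundant protein of oral and oesophageal mucosa, while SPRR1 and SPRR2 genes are known to be induced in differentiating, injured or inflamed squamous epithelium.

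In the GENCODE v29 annotation of GRCh38 (the assembly also called hg38), the 9 members lie on chromosome 1 between 152985231 and 153150869, a span of 166 kb. SPRR1A, SPRR3 and SPRR1B are on the plus strand, and the 6 SPRR2 genes follow on the minus strand. No other annotated gene overlaps a member there, so reads of an overlapping antisense gene are not at issue for these genes in that annotation. The coding sequences of 5 SPRR2 genes have the same length of 216 bases and are shown because their likeness bears on how reads could be assigned. Capitals mark bases that differ from SPRR2A, which is in lower case throughout. The sequences are those of the GENCODE v29 transcripts, 5′ to 3′ without the stop codon.
SPRR2A: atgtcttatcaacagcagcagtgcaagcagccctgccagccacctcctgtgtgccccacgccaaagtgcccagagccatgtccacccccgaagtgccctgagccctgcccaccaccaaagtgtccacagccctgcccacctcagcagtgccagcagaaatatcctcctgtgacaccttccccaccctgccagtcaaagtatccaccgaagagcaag
SPRR2B: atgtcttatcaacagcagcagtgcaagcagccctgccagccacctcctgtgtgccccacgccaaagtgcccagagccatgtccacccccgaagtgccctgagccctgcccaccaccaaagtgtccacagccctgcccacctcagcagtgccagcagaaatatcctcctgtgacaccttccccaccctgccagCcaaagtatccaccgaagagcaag
SPRR2D: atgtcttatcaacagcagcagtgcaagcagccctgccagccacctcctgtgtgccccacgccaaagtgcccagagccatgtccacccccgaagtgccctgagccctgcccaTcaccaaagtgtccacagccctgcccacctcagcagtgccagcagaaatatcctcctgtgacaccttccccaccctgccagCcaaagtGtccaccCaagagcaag
SPRR2E: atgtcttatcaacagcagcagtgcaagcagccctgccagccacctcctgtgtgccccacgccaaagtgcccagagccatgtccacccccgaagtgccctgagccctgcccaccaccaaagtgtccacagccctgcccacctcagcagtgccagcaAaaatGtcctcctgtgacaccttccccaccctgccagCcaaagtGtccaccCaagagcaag
SPRR2F: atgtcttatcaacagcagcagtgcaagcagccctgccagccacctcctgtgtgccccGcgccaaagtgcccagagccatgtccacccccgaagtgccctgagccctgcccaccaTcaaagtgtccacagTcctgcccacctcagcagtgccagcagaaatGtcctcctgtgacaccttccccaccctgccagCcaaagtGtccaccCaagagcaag
SPRR2B differed from SPRR2A at 1 base, SPRR2D at 4, SPRR2E at 5 and SPRR2F at 7. Identity to SPRR2A was thus 96.8% to 99.5% among these genes, and 85.4% for SPRR2G, whose coding sequence is 219 bases long. SPRR1A and SPRR1B, of 267 coding bases each, were 96.3% identical, while SPRR3, with 507 coding bases, was at most 45.0% identical to any other member over alignments that count gaps, a figure held down by its length, and 79.6% to 85.4% identical over the paired bases alone. Over the whole annotated transcript, 18.5% of the 100-base windows of SPRR2A, 18.1% of SPRR2B, 12.1% of SPRR2E and 4.56% of SPRR2D also occurred in another SPRR transcript. The other 5 members had no shared window of 100 bases, with only the coding part of SPRR1A annotated in that release. At 50 bases SPRR2F (16.3%), SPRR1A (11.3%), SPRR2G (8.29%) and SPRR1B (4.38%) shared windows too, and SPRR3 shared none. No source used here gives the read length or the treatment of reads with several matches, so the split of counts among the SPRR2 genes, and between SPRR1A and SPRR1B, is uncertain, and the sum is given beside the single genes.

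The upstream sequences of members are shown because the SPRR2 genes followed one another closely across the libraries. RefSeq promoters (GRCh38.p14) were at hand for 7 of the 9 members, and the 250 bases before the transcript start of 4 of them are given 5′ to 3′ on the gene's strand. Capitals mark matches to TGANTCA (a loose form, with any middle base, of the binding sequence of AP-1, the Fos and Jun proteins), ATTTGCAT (the octamer bound by POU factors), ACTTCCT (a core bound by ETS factors) and TATAAA, each searched on both strands.
SPRR2A promoter, chr1:153057513-153057762, minus strand: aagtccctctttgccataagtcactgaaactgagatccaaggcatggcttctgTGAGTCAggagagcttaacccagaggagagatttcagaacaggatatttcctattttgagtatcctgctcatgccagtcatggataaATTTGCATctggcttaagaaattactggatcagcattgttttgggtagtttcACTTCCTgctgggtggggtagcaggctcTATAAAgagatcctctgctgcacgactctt
SPRR2F promoter, chr1:153113517-153113766, minus strand: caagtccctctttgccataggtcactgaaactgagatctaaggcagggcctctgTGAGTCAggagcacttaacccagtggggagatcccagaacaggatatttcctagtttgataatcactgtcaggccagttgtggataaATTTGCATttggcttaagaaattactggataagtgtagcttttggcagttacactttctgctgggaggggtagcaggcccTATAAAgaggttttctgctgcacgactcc
SPRR1B promoter, chr1:153030953-153031202, plus strand: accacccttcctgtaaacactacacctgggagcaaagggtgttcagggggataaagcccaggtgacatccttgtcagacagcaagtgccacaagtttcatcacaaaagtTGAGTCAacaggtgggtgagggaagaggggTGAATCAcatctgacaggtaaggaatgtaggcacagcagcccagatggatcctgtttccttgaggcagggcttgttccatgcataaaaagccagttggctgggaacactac
SPRR3 promoter, chr1:153001499-153001748, plus strand: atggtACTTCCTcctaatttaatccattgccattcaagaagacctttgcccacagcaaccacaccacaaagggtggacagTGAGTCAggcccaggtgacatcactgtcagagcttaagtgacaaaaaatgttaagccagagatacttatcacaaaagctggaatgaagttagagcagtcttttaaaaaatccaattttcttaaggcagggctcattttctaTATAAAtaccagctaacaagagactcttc
TGANTCA was found in 6 of the 7 promoters of members, against 6.57% of all 35116 promoters of that length. The only match in SPRR2G was TGAATCA, while the other promoters with a match each held TGAGTCA. ATTTGCAT was found in 3 of 7, namely SPRR2A, SPRR2B and SPRR2F, against 1.63% of all promoters. In these 3 genes it ends 103, 101 and 102 bases upstream of the start. ACTTCCT was found in 3 of 7 (7.01% of all promoters) and TATAAA in 6 of 7 (10.7% of all promoters). The promoters of SPRR2A, SPRR2B and SPRR2F share long stretches of sequence, so their matches are not separate cases. The shares over all promoters are given for scale only. None of the motif matches of a member overlapped another, and these letters alone do not show binding.

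Summed over its 9 members, the family took 8515, 15.9, 6757 and 16435 CPM in knockdown 1 to 4, against 2.34, 558, 511 and 105 CPM in control 1 to 4. Knockdown 1, 3 and 4 were each above every library labelled control, by at least 12.1 times. Knockdown 2 was below control 2, 3 and 4 and above control 1, so the labels overlapped. In order, the family sum was highest in knockdown 4, then knockdown 1, knockdown 3, control 2, control 3, control 4, knockdown 2 and control 1, a range of 7030 times. Control 2 and control 3, neighbours in that order, had Poisson 95% intervals of 552 to 564 and 503 to 519 CPM, which cover counting error only. On the log2(CPM + 1) scale the family sum was 10.97 ± 4.62 in knockdown (SD, n = 4) and 6.65 ± 3.45 in control (SD, n = 4), a difference of 4.32 beside a pooled SD of 4.08. Without knockdown 2 the difference was 6.61, and without control 1 it was 2.68. Both are the libraries with salivary gland transcripts at 10.8% and 8.79% of counts, and their keratinocyte markers were at the foot of the range (967 and 439 CPM in sum). The part of these transcripts in the SPRR difference was not tested. Among the 4 libraries with at most 1% of counts in muscle or salivary genes, 2 of each label, the difference was 4.96. With library totals taken outside the muscle and salivary lists it was 4.26. That step took out only the listed markers and not other RNA of those tissues. It could move the difference only a little, so nothing is read from it.

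**Figure D1:**
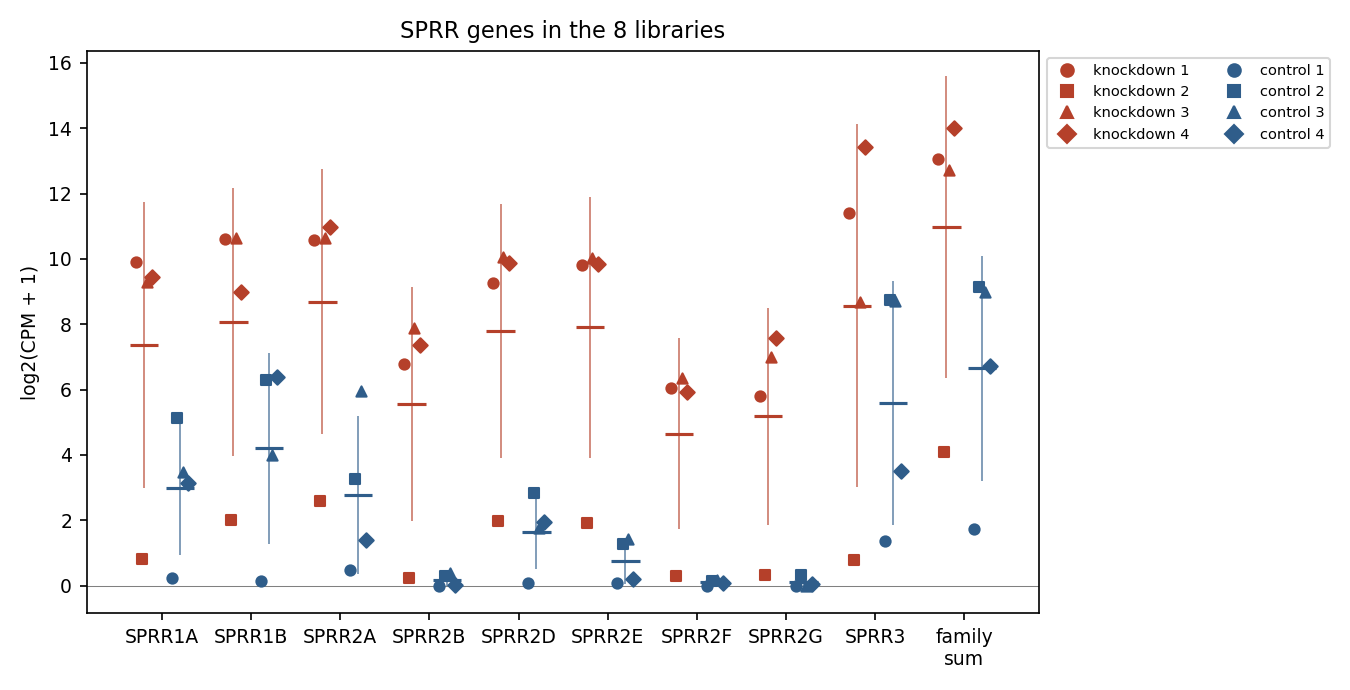
SPRR levels on the log2(CPM + 1) scale in the 8 libraries, with 1 point per library, horizontal bars for the mean and vertical lines for 1 SD (n = 4 per label). Knockdown 1, 3 and 4 sit above every library labelled control for 8 of 9 members, SPRR3 being the exception, while knockdown 2 sits near the control libraries.

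SPRR1A and SPRR1B encode the pair of cornifins, early cross-linked envelope precursors. SPRR1A stood at 966, 0.750, 631 and 691 CPM in knockdown 1 to 4, against 0.163, 34.0, 10.1 and 7.82 CPM in control 1 to 4. SPRR1B stood at 1551, 3.03, 1584 and 502 CPM in knockdown 1 to 4, against 0.109, 77.9, 14.9 and 82.5 CPM in control 1 to 4. For both genes knockdown 1, 3 and 4 were highest and control 1 lowest, and knockdown 2 lay among the libraries labelled control. The ratio of SPRR1B to SPRR1A was 1.61, 4.04, 2.51 and 0.726 in knockdown 1 to 4, against 0.667, 2.29, 1.47 and 10.6 in control 1 to 4, where control 1 rests on 4 and 6 counts. Control 4 therefore had the largest excess of SPRR1B, with a level near that of control 2, while its SPRR1A was below that of control 2. The fitted log2 fold changes of knockdown over control, given as a description, were 5.82 (SE 1.92) for SPRR1A and 4.79 (SE 1.95) for SPRR1B. Without control 2 the value of SPRR1A was 6.96.

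The SPRR2 genes encode the smallest members of the family. SPRR2A stood at 1537, 5.05, 1581 and 2003 CPM in knockdown 1 to 4, against 0.381, 8.53, 61.2 and 1.65 CPM in control 1 to 4. SPRR2D stood at 613, 2.97, 1063 and 938 CPM in knockdown 1 to 4, against 0.0544, 6.08, 2.36 and 2.83 CPM in control 1 to 4. SPRR2E stood at 906, 2.77, 1050 and 909 CPM in knockdown 1 to 4, against 0.0544, 1.39, 1.67 and 0.154 CPM in control 1 to 4. In all 3 genes knockdown 1, 3 and 4 were highest, and the lowest of them was 25.1 times the highest control library for SPRR2A, 101 times for SPRR2D and 541 times for SPRR2E. Only for SPRR2E of these did knockdown 2 also exceed every control library, with 85 counts and an interval of 2.21 to 3.43 CPM, against 1.26 to 2.19 CPM in control 3. The CPM of SPRR2A was 1.51 to 2.20 times that of SPRR2E in the libraries labelled knockdown, against 7.0, 6.13, 36.6 and 10.8 times in control 1 to 4, with control 3 the highest and control 1 resting on 14 and 2 counts.

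SPRR2B stood at 109, 0.163, 236 and 163 CPM in knockdown 1 to 4, against 0, 0.227, 0.310 and 0.0192 CPM in control 1 to 4. SPRR2F stood at 65.4, 0.228, 79.9 and 59.9 CPM in knockdown 1 to 4, against 0, 0.113, 0.124 and 0.0577 CPM in control 1 to 4. SPRR2G stood at 54.9, 0.261, 128 and 189 CPM in knockdown 1 to 4, against 0, 0.259, 0 and 0.0384 CPM in control 1 to 4. These 3 genes were close to undetected in every library labelled control, with at most 16 counts, while knockdown 1, 3 and 4 held 2186 to 8607 counts of each. A count of 0 in control 1 allows up to 0.0816 CPM at a floor of 3 counts. In knockdown 2 they had 5, 7 and 8 counts, so the place of that library among the controls is not settled at this depth. For SPRR2G, knockdown 2 exceeded control 2 by 0.261 against 0.259 CPM, with intervals of 0.113 to 0.514 and 0.148 to 0.420 CPM. The fitted log2 fold changes of SPRR2A, SPRR2B, SPRR2D and SPRR2E were 6.58 (SE 2.03), 10.21 (SE 2.11), 8.21 (SE 1.90) and 10.17 (SE 2.03). For SPRR2F and SPRR2G, which the filter on low counts removed, the unfiltered fit gave 9.70 (SE 1.57) and 10.29 (SE 1.86), values that depend on the prior count for genes so near 0 in control. Single control libraries moved some of these values, SPRR2A being fitted at 8.81 without control 3 and SPRR2G at 12.50 without control 2.

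SPRR3 encodes the longest member, also called esophagin. It stood at 2712, 0.717, 405 and 10981 CPM in knockdown 1 to 4, against 1.58, 429, 420 and 10.3 CPM in control 1 to 4. Unlike the other 8 members, SPRR3 was not separated from the controls in knockdown 3, which lay just below control 2 and control 3. Knockdown 2 was the lowest library of all, below control 1. The fitted log2 fold change was 4.24 (SE 2.27), and it ran from 2.80 to 4.88 when each library was left out. The same range was 5.40 to 6.96 for SPRR1A, 4.27 to 5.31 for SPRR1B, 6.17 to 8.81 for SPRR2A and 9.56 to 10.78 for SPRR2B. It was 7.72 to 8.92 for SPRR2D, 9.79 to 10.70 for SPRR2E and, over the 5 such fits whose filter kept them, 9.40 to 10.14 for SPRR2F and 10.00 to 12.50 for SPRR2G. In those fits SPRR2F and SPRR2G passed the filter only through knockdown 1, 3 and 4, where they were high, so their ranges do not show stability. Likeness between members was described by Pearson's coefficient of log2(CPM + 1) over the 8 libraries, which share depth and cell content. Over the 36 pairs of members it had a median of 0.924, was highest for SPRR2B with SPRR2F at 0.998, and was lowest for SPRR3 with SPRR2F at 0.717.

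CPM are not scaled to gene length, so shares of the family counts are compared across libraries only. SPRR3 took 31.8%, 4.50%, 5.99% and 66.8% of family counts in knockdown 1 to 4, against 67.4%, 77.0%, 82.2% and 9.79% in control 1 to 4. The SPRR2 genes took 38.6%, 71.8%, 61.2% and 25.9% in knockdown 1 to 4, against 20.9%, 2.98%, 12.9% and 4.50% in control 1 to 4. SPRR1A and SPRR1B took 29.6%, 23.7%, 32.8% and 7.26% in knockdown 1 to 4, against 11.6%, 20.1%, 4.89% and 85.7% in control 1 to 4. As measured, the share of SPRR2 genes did not overlap between labels, knockdown 2 included. Knockdown 2 and control 1 rest on 489 and 86 family counts, so the order of control 1 (20.9%) and knockdown 4 (25.9%) is not settled. The members were chosen from these values, so this is a description only. Control 4 stood apart as the library in which SPRR1 genes dominated.

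**Figure D2:**
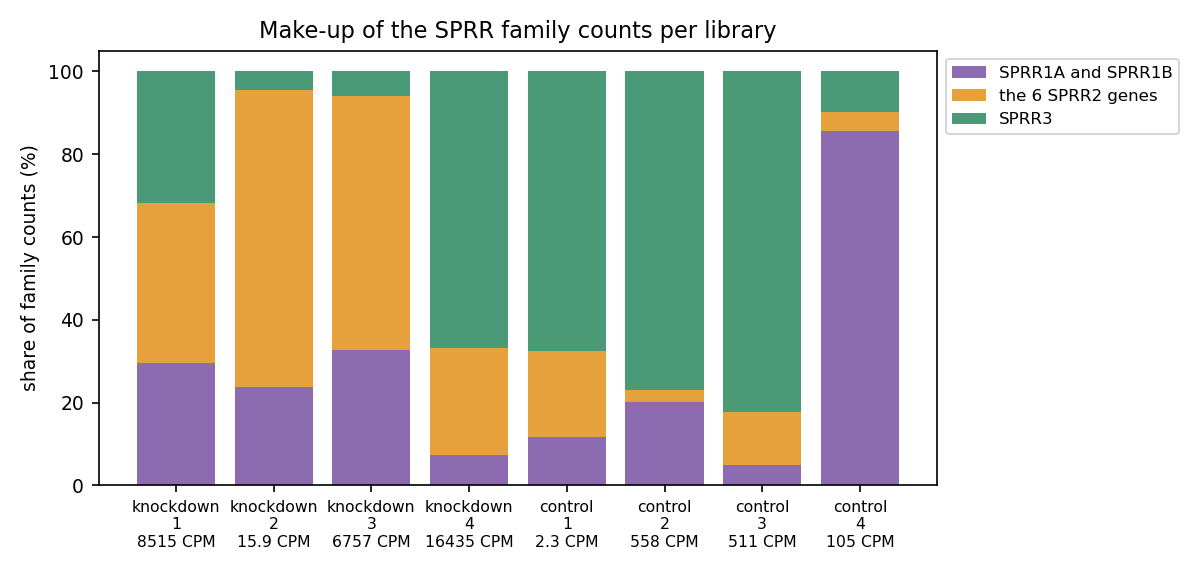
Share of the family's counts (%) taken by SPRR1A and SPRR1B, by the 6 SPRR2 genes and by SPRR3 in each library, with the family sum in CPM under each bar. SPRR2 genes take 25.9% to 71.8% in the libraries labelled knockdown and 2.98% to 20.9% in those labelled control.

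The SPRR genes were set against keratins of the lower and upper layers of the epithelium. KRT5 and KRT14, the keratin pair of basal keratinocytes, summed to 52159, 805, 40357 and 9203 CPM in knockdown 1 to 4, against 390, 29294, 6950 and 18449 CPM in control 1 to 4. The sum overlapped between labels (mean 25631 CPM with an SD of 24541 in the 4 knockdown libraries, and 13771 CPM with an SD of 12759 in the 4 control libraries). Permuting the labels exactly over the log2 sums gave a two-sided p = 0.6, adjusted to 0.686 over 2 keratin sums, with 0.0286 the smallest p that 70 assignments allow. Per 100 CPM of KRT5 and KRT14, the SPRR2 genes stood at 6.30, 1.42, 10.3 and 46.3 CPM in knockdown 1 to 4, against 0.125, 0.0567, 0.945 and 0.0257 CPM in control 1 to 4. On this ratio knockdown 2 also lay above every control library, by 1.42 against 0.945 in control 3. With KRT5 and KRT14 as the denominator, that did not hold for the rest of the family. SPRR1A and SPRR1B per 100 CPM stood at 0.469 in knockdown 2 and 0.490 in control 4, and the family sum at 1.98 in knockdown 2 and 7.35 in control 3. Knockdown 4 had 4261 CPM of SPRR2 genes in sum, against 16.6 and 4.75 CPM in control 2 and control 4, which had more basal keratin. KRT4 and KRT13, the keratin pair of the upper layers of oral mucosa, summed to 24807, 22.5, 1365 and 74032 CPM in knockdown 1 to 4, against 32.2, 5034, 9981 and 1235 CPM in control 1 to 4 (exact permutation p = 0.686, adjusted 0.686). Per 100 CPM of KRT4 and KRT13, SPRR3 stood at 10.9, 3.19, 29.7 and 14.8 CPM in knockdown 1 to 4, against 4.90, 8.53, 4.21 and 0.836 CPM in control 1 to 4. Whereas SPRR3 itself spread over 15316 times across the libraries, this ratio spread from 0.836 in control 4 to 29.7 in knockdown 3. The family sum per 100 CPM of KRT4 and KRT13 stood at 34.3, 71.0, 495 and 22.2 CPM in knockdown 1 to 4. In control 1 to 4 it stood at 7.27, 11.1, 5.12 and 8.54 CPM, so the labels did not overlap on that ratio. As the members were chosen from these libraries, these ratios are a description only.

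**Figure D3:**
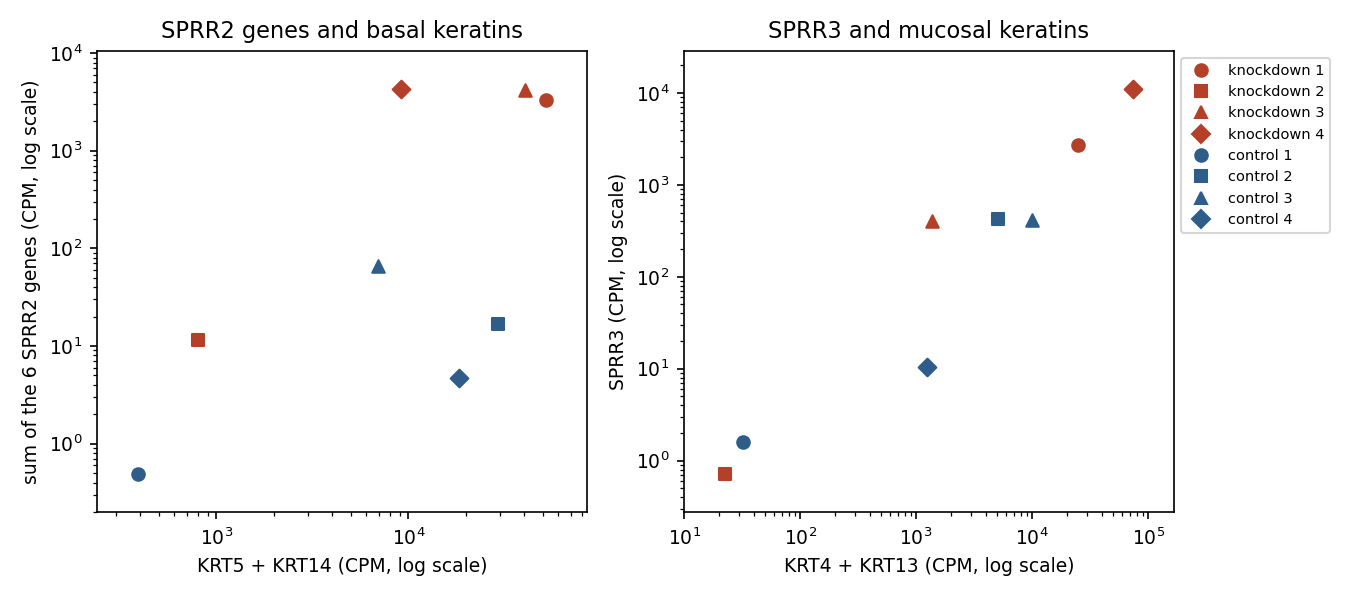
Left, the sum of the 6 SPRR2 genes against KRT5 and KRT14, and right, SPRR3 against KRT4 and KRT13, in CPM on log scales, with 1 point per library. On the left, knockdown 4 has 4261 CPM of SPRR2 genes at 9203 CPM of basal keratins, while control 2 and control 4 have 16.6 and 4.75 CPM of SPRR2 genes at 29294 and 18449 CPM.

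Across all genes, edgeR's quasi-likelihood test with Benjamini-Hochberg adjustment called 0 of 21192 genes between the labels (0.0% of those tested, smallest adjusted p = 0.981), and 1013 genes had an unadjusted p under 0.05. Of the 9 members 7 passed the filter on low counts, and 0 of these were called. limma-voom also called 0 genes, while DESeq2 called 126, or 0.721% of 17474 genes with an adjusted p, with 101 (0.578%) higher in knockdown, among them 5 members (SPRR1A, SPRR2A, SPRR2B, SPRR2D and SPRR2E). All 9 members had a higher mean log2(CPM + 1) in knockdown. The labels did not overlap for 3 members, SPRR2E, SPRR2F and SPRR2G, where 0.795% of the 46022 genes with a count were higher in knockdown without overlap. Knockdown 1, 3 and 4 each exceeded every control library for 8 members, against 2.38% of genes with a count. Without knockdown 2 edgeR called 1 gene, SPRR2F (0.00452% of 22142 tested), and it did so as well without knockdown 2 and control 1 (0.00459% of 21781). In both fits SPRR2F passed the filter only through knockdown 1, 3 and 4, where it was high, so these calls give no support. Without knockdown 2 and with no filter it called 32 genes (0.0708% of 45167), 5 of them members (SPRR2B, SPRR2D, SPRR2E, SPRR2F and SPRR2G). Since the members were chosen from these values, nothing is read from these counts and shares.

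The other SPRR genes of the table lay at lower levels with the same high libraries. SPRR2C, annotated as a pseudogene, stood at 8.70, 0, 10.7 and 12.7 CPM in knockdown 1 to 4, against 0, 0.534, 0.248 and 0.365 CPM in control 1 to 4. SPRR4, a family member known from ultraviolet-exposed skin, stood at 11.1, 0, 5.32 and 2.44 CPM in knockdown 1 to 4, against 0, 0.324, 0 and 0.115 CPM in control 1 to 4. SPRR5 had at most 91 counts in any library, 1.51 CPM in knockdown 1. All 3 had no count in knockdown 2 and in control 1.

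Late cornified envelope and fused S100-type genes, the neighbours of the SPRR cluster, numbered 28, of which 2 had no count in any library and 9 passed the filter. Of these 9, 0 were called by edgeR and all had a fitted value above 0, with a median log2 fold change of 4.54, beside -0.05 over all genes tested. An unadjusted edgeR p under 0.05 was found for 5 of them and for 1013 of all 21192 genes tested. The lists were chosen with earlier results known, so nothing is read from such counts here or in the lists below. The median log2 fold change of this list was 3.22 without knockdown 4 and 7.15 without knockdown 2, with 9 and 13 genes passing the filter. It was between 6.36 and 6.79 without any 1 of the control libraries, again over 13 genes. Medians over 13 genes rest on a larger set than the 4.54 over 9, so they do not show a stronger difference of the same genes. In those fits the filter could also let in genes that were high in knockdown 1, 3 and 4 alone. CRNN, cornulin of the oral and oesophageal mucosa, stood at 587, 0.391, 34.4 and 2931 CPM in knockdown 1 to 4, against 0.435, 64.9, 110 and 0.154 CPM in control 1 to 4. Like SPRR3, it was highest in knockdown 4 and lower in knockdown 3 than in control 2 and control 3. RPTN, repetin, an envelope precursor, stood at 35.0, 0.196, 128 and 916 CPM in knockdown 1 to 4, against 0.0544, 0.0324, 0.124 and 0.192 CPM in control 1 to 4, and the filter had removed it. Chosen after seeing the data, the edgeR fit without knockdown 2 and with no filter called 7 of 110 list genes. All 7 were higher in knockdown, and 0.0708% of all 45167 genes tested were called. The 7 were RPTN, FLG2, KPRP, LCE3E and PRR9 of this list and CNFN and TGM5 of the envelope scaffold list. Nothing is read from this count. DESeq2 on all 8 libraries called 12 of the 89 list genes to which it gave an adjusted p, all 12 higher in knockdown, where 0.578% of all genes were called higher. In this list they were FLG2, KPRP and LCE3A, 3 of 9.

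Of the genes for cross-linking enzymes and the scaffold of the envelope, 17 of 18 passed the filter and all 17 had a fitted value above 0 (median 4.13). edgeR called 0 of them, with 12 at an unadjusted p under 0.05, beside 1013 of all 21192 genes tested. DESeq2 called 4 higher in knockdown, CNFN, DSC1, PI3 and TGM5. CNFN, cornifelin of the envelope, stood at 441, 0.717, 696 and 430 CPM in knockdown 1 to 4, against 0.652, 8.93, 4.65 and 1.71 CPM in control 1 to 4. Like most SPRR genes, it was high in knockdown 1, 3 and 4 and low in knockdown 2. PKP1, plakophilin of desmosomes, averaged 2960 CPM (SD 2110, n = 4) in knockdown and 1524 CPM (SD 1360, n = 4) in control. DSC2, a desmosomal cadherin, averaged 2846 CPM (SD 1945, n = 4) in knockdown and 1117 CPM (SD 1001, n = 4) in control. PKP1 and DSC2 were at 40.1 and 129 CPM in knockdown 2, and at 10.7 and 41.2 CPM in control 1. Of the 14 S100 genes of the complex, 10 were fitted above 0 and 4 below (median 0.98). edgeR called 0 of them, with 2 at an unadjusted p under 0.05, and DESeq2 called 1, S100A7A. S100A7A, which encodes koebnerisin, stood at 149, 2.41, 1384 and 0.274 CPM in knockdown 1 to 4, against 0, 0.583, 0 and 1.23 CPM in control 1 to 4. Its labels overlapped, since knockdown 4 was below control 2 and control 4. S100A8, a calprotectin subunit, stood at 5997, 29.3, 9492 and 6740 CPM in knockdown 1 to 4, against 6.42, 1686, 1512 and 79.7 CPM in control 1 to 4.

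All 13 suprabasal keratins tested had a fitted value above 0 (median 3.85). edgeR called 0 of them, with 6 at an unadjusted p under 0.05, and DESeq2 called 3 of the 11 with an adjusted p, KRT1, KRT10 and KRT78, all higher in knockdown. KRT10, a keratin of the upper epidermis, stood at 972, 30.5, 7933 and 56.7 CPM in knockdown 1 to 4, against 5.93, 13.8, 11.6 and 31.3 CPM in control 1 to 4. Knockdown 2 was just below control 4 in KRT10, and the other 3 knockdown libraries were above every control library. KRT1, its partner, stood at 6424, 5.67, 3532 and 105 CPM in knockdown 1 to 4, against 0.381, 1.75, 17.6 and 79.7 CPM in control 1 to 4. KRT6A, a keratin of stressed and wounded epithelium, stood at 42475, 67.6, 37562 and 9222 CPM in knockdown 1 to 4, against 10.4, 16359, 691 and 10255 CPM in control 1 to 4. KRT16, its partner, stood at 24973, 35.9, 23620 and 2692 CPM in knockdown 1 to 4, against 3.62, 7606, 79.4 and 7487 CPM in control 1 to 4. Knockdown 4 was thus below control 2 and control 4 in both stress keratins, the reverse of their order in every SPRR gene. Of 11 basal keratinocyte genes edgeR and DESeq2 called 0, none had an unadjusted p under 0.05 in edgeR, and 5 were fitted above 0 and 6 below (median -0.39), and this median ran from -0.58 to 0.25 when each library was left out. Of 28 transcription factors known from SPRR promoters or late keratinocyte differentiation, 17 were fitted above 0 and 11 below (median 0.39, and 0.05 to 1.16 when each library was left out). edgeR called 0 of them, with 3 at an unadjusted p under 0.05, and DESeq2 called 1 of the 27 with an adjusted p, ELF3. ELF3, an ETS factor of epithelia, stood at 115, 81.4, 71.9 and 150.3 CPM in knockdown 1 to 4, against 32.8, 31.2, 51.6 and 34.1 CPM in control 1 to 4. Its labels did not overlap, and knockdown 2 was not low for it. FOS, which encodes an AP-1 subunit, stood at 477, 153, 98.9 and 715 CPM in knockdown 1 to 4, against 31.3, 332, 3818 and 66.5 CPM in control 1 to 4. FOSB, which encodes another, stood at 157, 31.6, 20.4 and 401 CPM in knockdown 1 to 4, against 6.74, 65.0, 3994 and 5.04 CPM in control 1 to 4. Both were highest in control 3, a library in the middle of the SPRR order, and the labels overlapped.

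The genes whose level was most like the family sum were ranked by Pearson's coefficient of log2(CPM + 1) over the 8 libraries, among 16112 named genes with a mean of at least 1 CPM. The first 10 had coefficients between 0.976 and 0.989. They were SULT2B1 (a cholesterol sulfotransferase), BNIPL, GRB7 (an adaptor of receptor tyrosine kinases), TGM1 (the membrane-bound transglutaminase of keratinocytes), MXD1 (an antagonist of MYC), CSTA (cystatin A), TRIM16, EVPL (envoplakin of the envelope scaffold), S100A9 (the other calprotectin subunit) and NCCRP1. TGM1 stood at 929, 4.63, 1182 and 839 CPM in knockdown 1 to 4, against 1.09, 108, 98.8 and 54.1 CPM in control 1 to 4. CSTA stood at 1752, 7.85, 898 and 1564 CPM in knockdown 1 to 4, against 1.74, 145, 119 and 104 CPM in control 1 to 4. Since the 10 were picked for their likeness over these libraries, their sharing of the family's high and low libraries follows from the choice. TGM1, CSTA, EVPL and S100A9 are also in the lists above, and edgeR called none of the 10 over all genes.

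**Figure D4:**
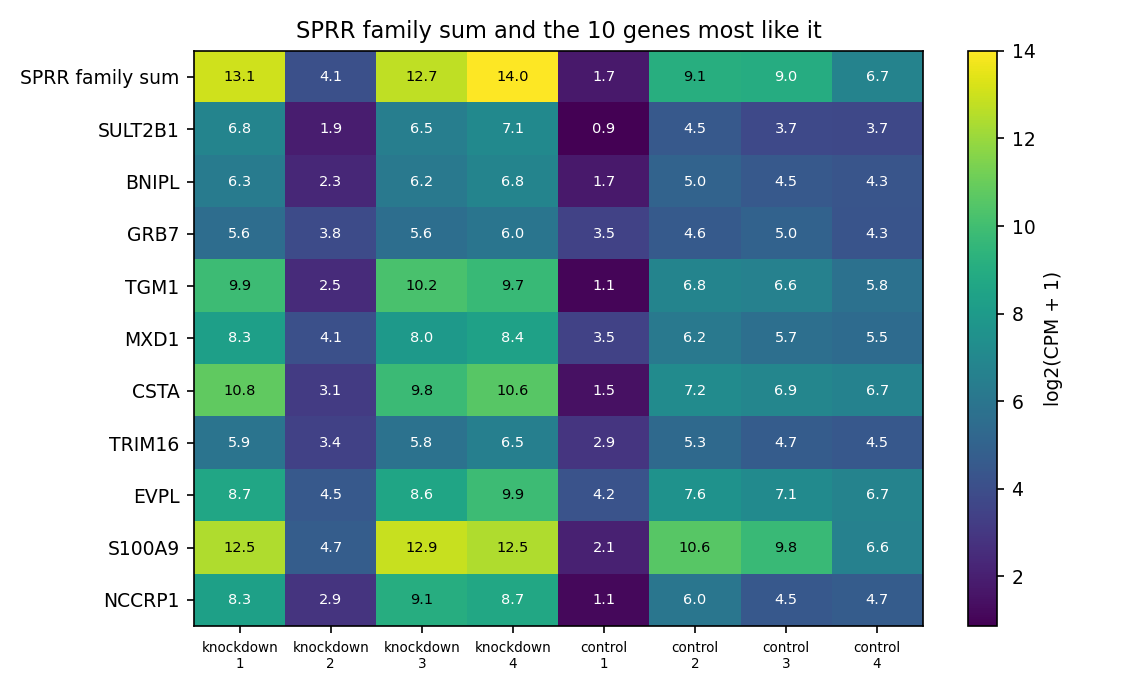
Levels on the log2(CPM + 1) scale of the SPRR family sum and of the 10 genes with the highest Pearson's coefficient to it, by library. The genes were picked for this likeness, so that the rows share the family's high and low libraries, though not all share its exact order. The family sum is highest in knockdown 4 at 16435 CPM and lowest in control 1 at 2.34 CPM. TGM1 is highest in knockdown 3 and CSTA in knockdown 1.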

How the data were processed

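RNA was sequenced from 8 libraries. Gene counts were deposited by the authors as raw whole numbers. The submitters' processing notes name STAR, featureCounts, Subread and hg38; no source used here gives their versions, the annotation, the strand setting or the handling of reads with several matches. Symbols were matched by Ensembl identifier to 62666 of 63241 rows. CPM used column totals (30684584 to 61795990 counts). The main test was edgeR's quasi-likelihood test (version 4.0.16, R 4.3.3) on TMM-scaled counts after filterByExpr, calling genes at an adjusted p under 0.05. Alternatives used DESeq2 1.42.0 and limma 3.58.1, other scaling, filters and pseudocounts, a replicate block, and left-out libraries. The edgeR script was tested on simulated counts. At the spread estimated from the real libraries it recovered 0%, 6%, 72% and 100% of changes of 2, 4, 16 and 64 times. A count of 0 called genes therefore says little about changes of 2 or 4 times. The p-values measure the spread between these libraries, which may be technical. Poisson 95% intervals and the floor of 3 counts cover counting error only.

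Members and lists were chosen with earlier results of these data known. Named were the members, the other SPRR genes, COL1A1, the called genes or else the 2 most abundant of each of 6 lists, and the 10 genes most like the family sum (pseudogenes and clone names left out). Genes called only in an alternative were named after their values were seen. The log2(CPM + 1) scale understates changes of low genes.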

Additional observations from a re-analysis of the deposited data

Results flagged for a closer look

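Each value below stood apart from the other 3 libraries of its label on the log2(CPM + 1) scale, with a gap to the nearest library that exceeded Dixon's 95% critical value for 4 samples. Chance alone would give such a gap in about 1 of 20 groups of independent, normally distributed values. The SPRR genes followed one another across libraries and some values rest on few counts, so that rate does not carry over to the flags below. The members were also chosen from these values, so the flags are a description and not a test. Knockdown 2 lay below the other libraries labelled knockdown for the SPRR family sum (4.08), SPRR1A (0.81), SPRR2A (2.60), SPRR2B (0.22), SPRR2D (1.99), SPRR2E (1.91), SPRR2F (0.30) and the pseudogene SPRR2C (0.00). Among the libraries labelled control, control 2 lay above the others for SPRR2G (0.33, from 16 counts). Knockdown 2 held 3.79% of its counts in skeletal muscle markers and 10.8% in salivary gland markers, and their part in its low SPRR values was not tested.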

How the results depend on the processing

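All 9 members had a higher mean in knockdown under each alternative run for that count (TMM scaling, other pseudocounts, medians, the replicate block and left-out libraries). The members were chosen from values of these same libraries, so nothing is read from this count. The difference of the family sum stayed between 2.68 and 6.61 on the log2 scale with each library left out. Under the other alternatives it was between 3.42 and 6.52 (3.42 for SPRR1A, SPRR1B and SPRR3, 6.52 for the SPRR2 genes). The count of called genes was 0 with other scaling factors, other filters, limma-voom and the replicate block, and 0 to 1 with each library left out. It was 126 with DESeq2 (12 in the context lists), 32 without knockdown 2 and with no filter (7 in the context lists) and 1 without knockdown 2 and control 1, the last 2 settings being chosen after seeing the data. In the replicate block the family sum differed by 4.32. Same-numbered libraries did not deviate together (correlations of -0.69 to -0.36 over genes), which gives no ground to pair them. Muscle and salivary gland content, which differed by library, also enters these correlations, so they cannot tell whether the numbers mark pairs. The median of the basal keratinocyte genes changed sign with a library left out, from -0.58 to 0.25, above 0 without control 2, 3 or 4. The median of the late envelope list was 3.22 without knockdown 4 and 7.15 without knockdown 2, with 9 and 13 of its genes passing the filter. Library totals in place of TMM moved the median of all genes by -0.16. Members with a few counts in control are limited by depth.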
